A study of Mus musculus with 12 samples.

Results

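The genes described here encode the standard subunits of the proteasome together with its activators, its inhibitor and its assembly chaperones, measured in mouse Th2 cells, the helper T cells of allergic inflammation. They were taken by name, as Psma, Psmb, Psmc, Psmd, Psme, Psmf or Psmg with a number, leaving out the immunoproteasome genes Psmb8, Psmb9 and Psmb10. A gene also had to average at least 10 normalized counts over the 6 RNA libraries. The 44 genes that met this rule, of 25700 in the RNA table, comprise 7 Psma, 8 Psmb, 6 Psmc, 14 Psmd, 5 Psme or Psmf1 and 4 Psmg genes. Psma8, an alpha subunit known from the testis, matched the name and was left out by its mean of 4.06. The study compared cKO (conditional knockout) with WT Th2 cells by RNA-seq and by ATAC-seq, in which a transposase cuts accessible DNA, with 3 libraries per genotype in each assay and 12 in all. Its title names NRF2, the stress-response transcription factor encoded by Nfe2l2. The deleted gene, the Cre driver, the age and sex of the mice and the way the Th2 cells were obtained are not given in the sources used here, nor is it stated whether replicates came from separate animals. The p-values therefore measure only the spread between these libraries, which may be technical, and the genotypes are called cKO-labelled and WT.

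The proteasome is the protease that degrades most ubiquitin-tagged proteins. Its barrel-shaped core particle is built of alpha rings (Psma), which gate the entrance, and beta rings (Psmb), which hold the proteolytic sites. A regulatory particle caps the barrel: a base with a ring of ATPases (Psmc) unfolds the substrate, and non-ATPase subunits (Psmd) bind and remove the ubiquitin chain. Transcription of the subunit genes is known to be raised together by NRF1, encoded by Nfe2l1, when proteasome activity is short, and several of the genes are known NRF2 targets in mouse.

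RNA of these genes was lower in the cKO-labelled libraries as a group. Summed over the 44 genes, it made up 0.724%, 0.814% and 0.706% of all normalized counts in cKO-labelled libraries 1, 2 and 3, against 0.885%, 0.960% and 0.964% in WT libraries 1, 2 and 3. The highest cKO-labelled library thus stayed below the lowest WT library, and the mean summed count of the cKO-labelled libraries was 0.778 of that of WT. The log2 change was negative for 41 of the 44 genes, where 45.0% of all 18074 genes tested had a negative change, and its median was -0.35, against 0.06 over all genes tested. Every cKO-labelled value lay below every WT value for 26 of the 44 genes (9.76% of all genes tested) and above for 0 (7.4% of all genes tested), and the groups overlapped for the other 18.

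No single gene of the 44 passed the test across all genes. With limma on log2 of the normalized count plus 1 and Benjamini-Hochberg adjustment, 0 of the 44 had an adjusted p under 0.05, where 0.172% of all genes tested were called lower and 0.0332% higher. At an unadjusted p under 0.05, 23 of the 44 were lower and 0 higher, where 6.05% of all genes lay on each side. In the authors' deposited table, 12 of the 43 with an adjusted p were called lower and 0 higher, where 3.9% and 1.78% of the 9263 genes with an adjusted p were. Those 12 were Psma2, Psma3, Psma5, Psma7, Psmb4, Psmb5, Psmb7, Psmd2, Psmd13, Psmg1, Psmg2 and Psmg3. The number called by limma moved with 1 library: it was 3 without cKO replicate 2 (Psma3, Psmb4 and Psmb7) and 0 without each of the other 5 libraries. The share of all genes called without cKO replicate 2 is not given here, so these 3 have no background beside them. The number called was 19, all lower, when libraries were weighted by array quality, where 4.65% of all genes tested were called lower. Those weights rest largely on cKO-labelled library 1, which had a weight of 7.43, while the other 5 libraries had 0.437 to 1.12.

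**Figure D1:**
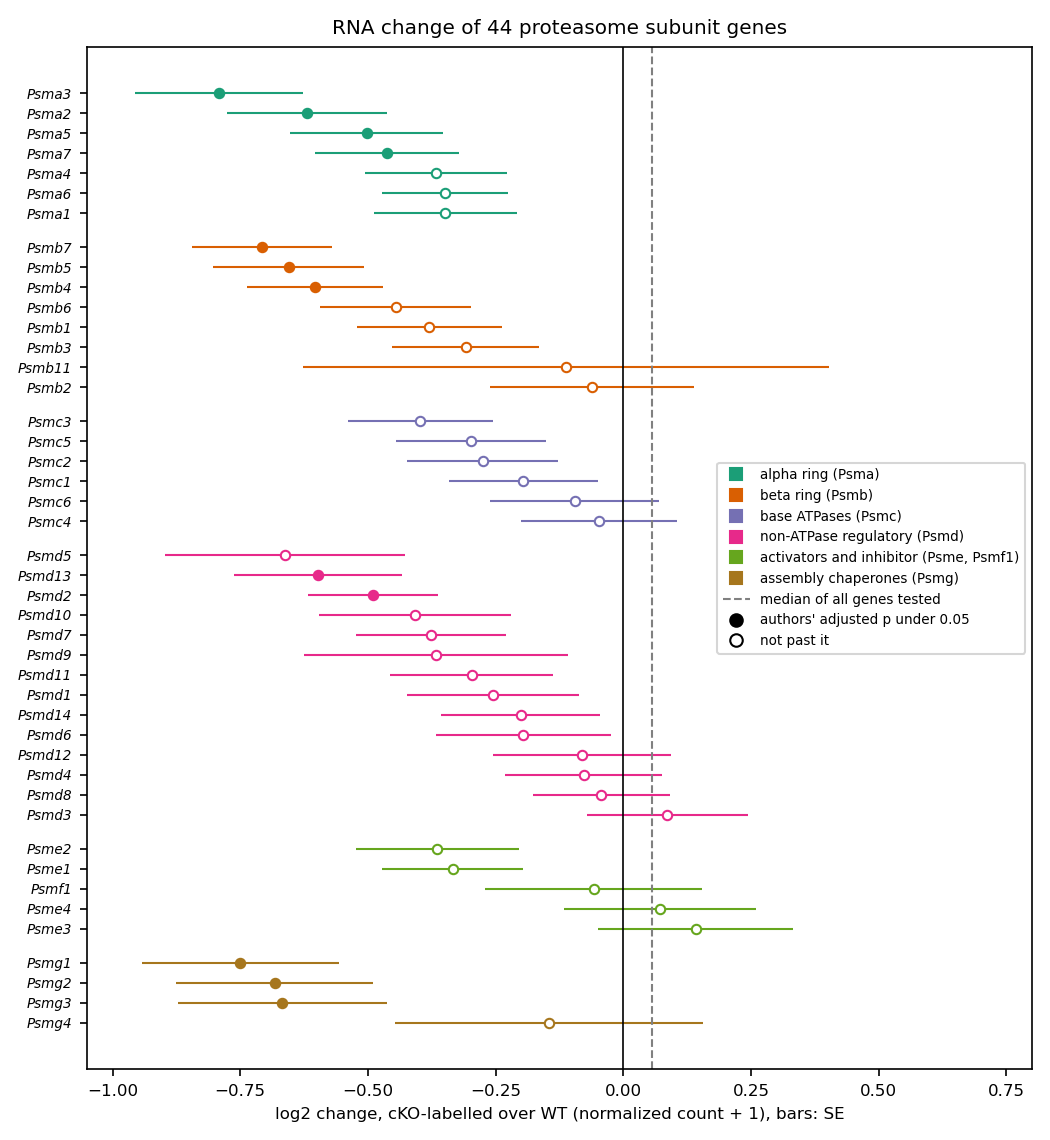
Log2 change of RNA, cKO-labelled over WT, for the 44 genes in 6 groups by role, with bars for the standard error from limma and the dashed line at the median of all genes tested (0.06). Filled points are the 12 genes called in the authors' deposited table. The alpha ring lies wholly below zero, while Psmd3, Psme4 and Psme3 lie above it.

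RNA totals of the libraries ran from 6431081 to 7372007 normalized counts, and the raw depth behind them is unknown. The depth of ATAC was 13149952 to 18327127 tags per library. Peaks took in 34.87% to 35.42% of the tags in cKO-labelled libraries and 25.22% to 38.28% in WT libraries, WT replicate 2 being the lowest of all 6. All 8 T cell markers examined were among the genes tested, with a summed share of 0.250% to 0.308% in cKO-labelled and 0.248% to 0.273% in WT libraries. Of the Th2 genes, Gata3 averaged 719.7 normalized counts in cKO-labelled and 712 in WT libraries and Il13 averaged 385 and 810.1, while Il4 and Il5 stayed under a mean of 10 in both groups. Summed markers of B, plasma, myeloid, granulocyte, CD8 T and NK, epithelial and stromal, and erythroid cells came to at most 0.0119% of a library for any of these lists. Lyz2, Ly6g, Retnlg and S100a8 were not listed among the genes of the RNA data, so no mean can be given for them. Only 1 of 5 neutrophil markers was listed, as was 1 of 5 eosinophil, basophil and mast cell markers and 1 of 5 erythroid markers. The labels' deletion could not be checked on a named target: Nfe2l2, the gene of the title, was higher in the cKO-labelled libraries. Ddx3y and Eif2s3y, which are Y-linked, were listed at 0 in all 3 cKO-labelled libraries and averaged 132 and 122 normalized counts in WT, so that genotype and sex of the cell donors cannot be told apart in any result here.

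Promoter sequences were compared first, since NRF2 and NRF1 bind as partners of small MAF proteins at the antioxidant response element. RefSeq promoter windows (GRCm38.p6, 250 bases before to 50 after a gene's start) were found for 37 of the 44 genes. The element's core letters TGACNNNGC, read on both strands, lay in 6 of those 37 windows (16.2%), against 16.2% of the windows of genes tested for RNA and 14% of the windows of all genes. The 4 windows with the match nearest to the gene start are shown, 5′ to 3′ on the gene's strand, with the match in capitals, because these are the stretches where the letters of an NRF2 element lie closest to transcription.
Psme4: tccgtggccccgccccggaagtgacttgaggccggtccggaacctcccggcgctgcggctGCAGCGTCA
Psmb6: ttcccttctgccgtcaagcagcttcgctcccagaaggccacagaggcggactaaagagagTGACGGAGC
Psmd9: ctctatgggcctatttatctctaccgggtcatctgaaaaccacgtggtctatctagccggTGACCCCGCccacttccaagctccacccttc
Psmb5: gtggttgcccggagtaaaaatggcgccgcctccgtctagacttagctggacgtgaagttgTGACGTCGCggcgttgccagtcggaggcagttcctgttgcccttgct
These stretches are Psme4 at chr11:30771708-30771776 (plus strand), Psmb6 at chr11:70525288-70525356 (plus), Psmd9 at chr5:123228099-123228189 (plus) and Psmb5 at chr14:54617996-54618102 (minus). The matches begin 7, 9, 31 and 47 bases before the start of Psme4, Psmb6, Psmd9 and Psmb5. In Psme4 the match reads on the opposite strand and reaches past the start. The other matches were in Psmc6 and Psmd12, 227 and 247 bases before the start.

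Of the other motifs searched on both strands, CCGGAA, the core recognised by ETS factors, lay in 20 of 37 windows (54.1%), against 28.3% of the windows of genes tested and 16.7% of all genes. CCAAT, bound by NF-Y, lay in 13 windows (35.1%, against 42.9% of genes tested). GGGCGG, bound by Sp1, lay in 22 (59.5%, against 62.6%), and the E box CACGTG in 3 (8.11%, against 11%). A match is a run of letters and does not show binding, and matches to different motifs may overlap. The CCGGAA letters are shown for 3 of the genes with lower RNA described below, chosen after their values were seen as those with the smallest p for RNA among the genes with a match within the bases before the start. The 20 genes with a match also include Psme3 and Psme4, whose RNA change was positive. Psmd4, Psmc6, Psmd12 and Psmf1, with small RNA changes, had a match too, while Psma3 and Psmb5 had none. Whether the letters go with the RNA change was not tested. Capitals mark each CCGGAA on either strand.
Psmg1: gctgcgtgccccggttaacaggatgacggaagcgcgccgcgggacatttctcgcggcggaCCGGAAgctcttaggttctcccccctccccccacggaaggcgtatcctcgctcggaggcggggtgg
Psmd2: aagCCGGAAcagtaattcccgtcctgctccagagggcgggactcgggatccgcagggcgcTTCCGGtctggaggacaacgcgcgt
Psmd13: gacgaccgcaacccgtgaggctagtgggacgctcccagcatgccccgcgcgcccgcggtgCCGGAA
They lie at chr16:95990964-95991089 (Psmg1, minus strand), chr16:20651567-20651651 (Psmd2, plus) and chr7:140882328-140882393 (Psmd13, plus). Starts are those of the RefSeq promoter table. For Psmb6 and Psmd2 the RefSeq gene span begins further upstream than that start, so that their stretches lie partly or wholly within the annotated gene. All 7 printed stretches lay inside a region of open chromatin found in every ATAC library.

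The alpha ring was lower throughout. All 7 Psma genes had a negative log2 change (median -0.46), none overlapped between the groups, all 7 had an unadjusted p under 0.05 and 4 were called lower in the authors' deposited table. Over all genes, the shares on the lower side were 9.76% without overlap, 6.05% by unadjusted p and 3.9% by the authors' call. Of genes averaging 1000 or more, as these 7 do, 27.3% had all cKO-labelled values below all WT values. Psma3 (chr12:70969283-70995877, build GRCm38.p6) had 1167, 1579.7 and 1229 normalized counts in cKO-labelled libraries, against 2163, 2075 and 2621 in WT. It was 42% lower on average (log2 change -0.79, SE 0.17, adjusted p = 0.0754). Psma2 had 1315, 1482 and 1573 normalized counts in cKO-labelled libraries, against 1899.8, 2317 and 2525 in WT (log2 change -0.62, SE 0.16, adjusted p = 0.121). The cKO-labelled values of both genes kept under the WT values, although the WT values of Psma2 were spread over a wide range. Psma5 had 909.9, 935 and 825 normalized counts in cKO-labelled libraries, against 1232, 1249.9 and 1297 in WT (log2 change -0.50, SE 0.15, adjusted p = 0.187), a narrow spread in both groups. Psma7 had 1457, 1569.6 and 1549 normalized counts in cKO-labelled libraries, against 2236, 1932 and 2147 in WT (log2 change -0.46, SE 0.14, adjusted p = 0.193). Psma6 had the highest mean normalized count of the 44 genes, a quantity that also grows with transcript length, with 3188, 3190.1 and 3246 normalized counts in cKO-labelled libraries, against 4029, 4261 and 3968 in WT. Its change was smaller (log2 change -0.35, SE 0.12, adjusted p = 0.276) but the groups stood far apart relative to their spread. Psma1 and Psma4 had log2 changes of -0.35 and -0.37. Reads of Psma3 and Psma4 may include those of neighbouring genes that overlap them on the genome, 3110056K07Rik and AY074887, since strand use in counting is not given in the sources used here.

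Of the 8 beta-ring genes, the proteolytic subunits were among the lowest. Psmb7 (chr2:38588046-38643952), which carries the trypsin-like site, had 1491, 1511 and 1497 normalized counts in cKO-labelled libraries, against 2286, 2638 and 2441 in WT. The 3 cKO-labelled values lay within a few percent of each other and all below WT (log2 change -0.71, SE 0.14, adjusted p = 0.0634), the smallest p of the 44 genes. Psmb5, which carries the chymotrypsin-like site targeted by proteasome inhibitor drugs, had 1359.6, 1607 and 1387 normalized counts in cKO-labelled libraries, against 2290.0, 2074 and 2494 in WT (log2 change -0.66, SE 0.15, adjusted p = 0.0899). Psmb6, which carries the caspase-like site, had 1403, 1577 and 1499.7 normalized counts in cKO-labelled libraries, against 1829, 1988 and 2307 in WT (log2 change -0.45, SE 0.15, adjusted p = 0.241). For each of the 3 proteolytic subunits the groups did not overlap. Psmb4, a structural subunit of the ring, had 2379, 2781 and 2444 normalized counts in cKO-labelled libraries, against 3607, 3899.7 and 4034 in WT (log2 change -0.60, SE 0.13, adjusted p = 0.0876), also without overlap. Psmb1 and Psmb3, both structural, had log2 changes of -0.38 and -0.31 without overlap. Psmb2 was the exception among the widely expressed beta genes, with 703, 557 and 786 normalized counts in cKO-labelled libraries, against 732, 836 and 573 in WT (log2 change -0.06, SE 0.20, adjusted p = 0.934), where the groups overlapped over most of their range. Psmb11, the beta subunit known from thymic cortical epithelium, had the lowest mean of the 44 genes, 22.5, 51.4 and 28.6 normalized counts in cKO-labelled libraries, against 20.9, 58.9 and 34.1 in WT. Both groups of Psmb11 covered much the same range, and its log2 change of -0.11 had a standard error of 0.51. The median over the 8 was -0.41, 6 did not overlap, 5 had an unadjusted p under 0.05 and 3 were called lower in the authors' deposited table. The shares over all genes were 9.76%, 6.05% and 3.9%, in the same order. Of genes averaging 1000 or more, as the 6 without overlap do, 27.3% had all cKO-labelled values below all WT values.

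**Figure D2:**
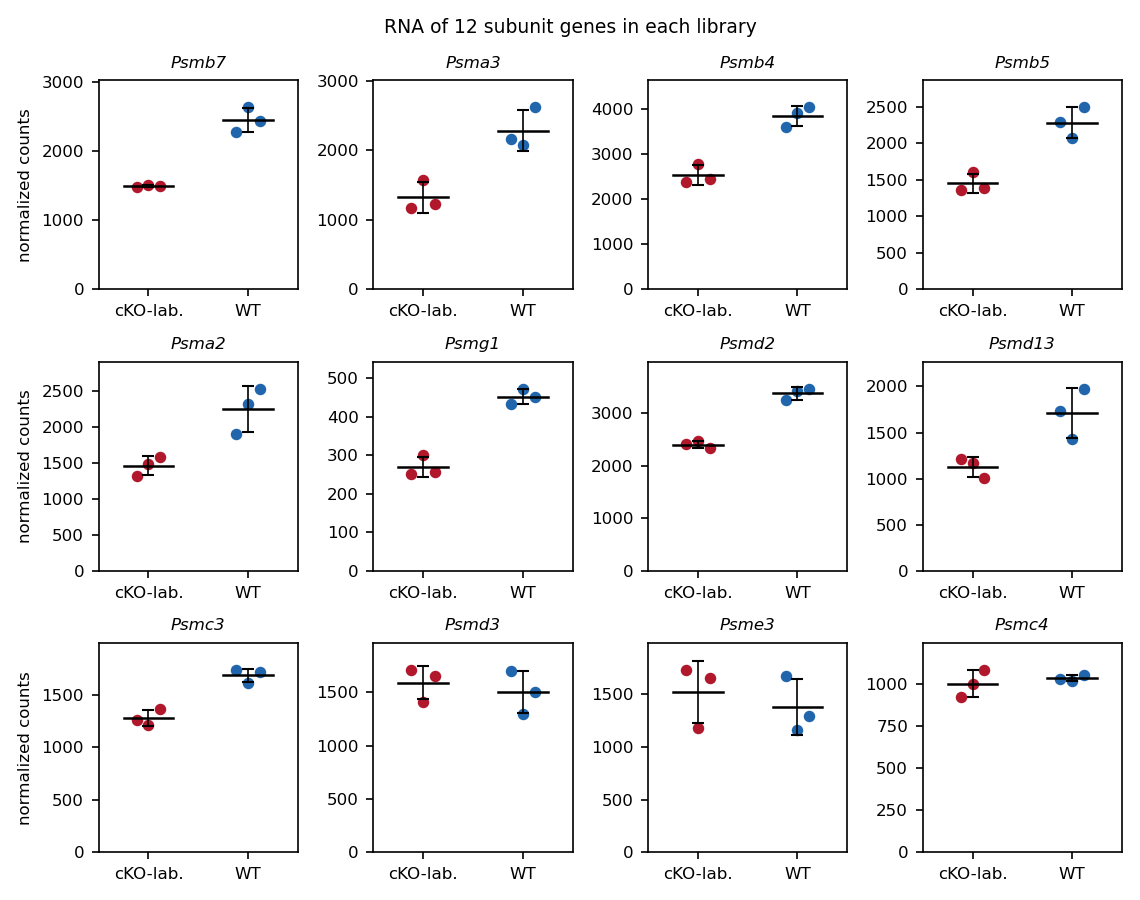
Normalized counts of 12 of the genes in each library, cKO-labelled left and WT right, with a line at the mean and bars of 1 SD (n = 3 each). In the first 9 panels all cKO-labelled points lie below all WT points. Psmd3, Psme3 and Psmc4, added after their values were seen as genes with little difference, overlap.

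The ATPase genes of the base had changes nearer to zero. All 6 Psmc genes had a negative log2 change, with a median of -0.24, 3 did not overlap, 1 had an unadjusted p under 0.05 and 0 were called by limma or in the authors' deposited table. Over all genes, 9.76% had no overlap and 6.05% an unadjusted p under 0.05 on the lower side. Without overlap on that side were 27.3% of genes averaging 1000 or more, as all 6 do. Psmc3 (chr2:91054016-91059438) had 1259, 1219 and 1371 normalized counts in cKO-labelled libraries, against 1735, 1615 and 1714 in WT (log2 change -0.40, SE 0.14, adjusted p = 0.281). Psmc5 had 1229, 1104 and 1260.1 normalized counts in cKO-labelled libraries, against 1495, 1381 and 1540.2 in WT (log2 change -0.30, SE 0.15, adjusted p = 0.445), and Psmc2 had 1293, 1175 and 1333 normalized counts in cKO-labelled libraries, against 1498, 1668 and 1437 in WT (log2 change -0.28, SE 0.15, adjusted p = 0.484). These 3 genes separated the groups by less than the lowest alpha and beta genes did. Psmc1 had 1483, 1422 and 1475 normalized counts in cKO-labelled libraries, against 1482, 1771 and 1778 in WT (log2 change -0.20, SE 0.15, adjusted p = 0.631), with 1 cKO-labelled library just above a WT library. Psmc6 and Psmc4 were close to no difference, at -0.10 and -0.05. For Psmc4 the cKO-labelled libraries had 923, 998 and 1079 normalized counts and the WT libraries 1029, 1016 and 1049.8, so that all WT values fell inside the cKO-labelled range.

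The 14 Psmd genes were mixed. Their median log2 change was -0.28, 13 were negative, 6 did not overlap, 5 had an unadjusted p under 0.05 and 2 were called lower in the authors' deposited table. For the last 3 counts the shares over all genes were 9.76%, 6.05% and 3.9%. The share without overlap on the lower side was 27.3% of genes averaging 1000 or more, as Psmd2, Psmd7, Psmd11 and Psmd13 do. It was 11.2% at a mean of 100 to 1000, where Psmd5 and Psmd10 lie. Psmd2 (chr16:20651122-20663414), a large scaffold of the base that docks ubiquitin shuttles, had 2412, 2466 and 2343 normalized counts in cKO-labelled libraries, against 3248, 3424 and 3469 in WT (log2 change -0.49, SE 0.13, adjusted p = 0.129). Psmd13, a subunit of the lid, had 1208, 1167 and 1004 normalized counts in cKO-labelled libraries, against 1731, 1435 and 1974 in WT (log2 change -0.60, SE 0.16, adjusted p = 0.154). Both were below WT in every library, Psmd2 with the narrower spread. Psmd7, the partner of the deubiquitinase in the lid, had 1275, 1295 and 1366 normalized counts in cKO-labelled libraries, against 1539.8, 1687 and 1902 in WT (log2 change -0.38, SE 0.15, adjusted p = 0.324), without overlap. Psmd5, Psmd9 and Psmd10 encode chaperones that assemble the base and do not stay in the finished particle. Psmd5 had 328, 343 and 271 normalized counts in cKO-labelled libraries, against 685, 462 and 383 in WT (log2 change -0.66, SE 0.23, adjusted p = 0.276). The groups did not overlap, and WT library 1 stood far above the other WT libraries. Psmd10 had 297, 324 and 307 normalized counts in cKO-labelled libraries, against 434, 413 and 387 in WT (log2 change -0.41, SE 0.19, adjusted p = 0.412), also without overlap. It is X-linked, overlaps Atg4a on the genome and was chosen after its values were seen. Psmd9 overlapped between the groups, at a log2 change of -0.37. The remaining lid and base subunits showed small differences: Psmd11 at -0.30, without overlap, and, with overlap, Psmd1 at -0.26, the deubiquitinase Psmd14 at -0.20, Psmd6 at -0.20, Psmd12 at -0.08, the ubiquitin receptor Psmd4 at -0.08 and Psmd8 at -0.04. Psmd3 was the only one with a positive change, 0.09, at 1703, 1411 and 1649 normalized counts in cKO-labelled libraries, against 1696, 1299 and 1504 in WT and with wide overlap.

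The activators and the inhibitor gave changes of both signs. Psme1 and Psme2 encode the subunits of the interferon-inducible activator that binds the open ends of the core. Psme1 (chr14:55578494-55581527) had 1821, 1957 and 1894 normalized counts in cKO-labelled libraries, against 2171, 2451 and 2541 in WT (log2 change -0.33, SE 0.14, adjusted p = 0.351), without overlap. Psme2 had 1778, 2227 and 1639 normalized counts in cKO-labelled libraries, against 2334, 2730.1 and 2172 in WT (log2 change -0.36, SE 0.16, adjusted p = 0.386), with 1 cKO-labelled library above the lowest WT library. A gene named as a copy, Psme2b, was listed with a mean of 178 in cKO-labelled and 240 in WT libraries (log2 change -0.40). Reads may be split between Psme2 and this copy. Psme3, a nuclear activator, had 1725, 1179.9 and 1649.7 normalized counts in cKO-labelled libraries, against 1670.4, 1160.3 and 1291 in WT (log2 change 0.14, SE 0.19, adjusted p = 0.813). Psme4, another nuclear activator, had 536, 492 and 613 normalized counts in cKO-labelled libraries, against 611, 473 and 482 in WT (log2 change 0.07, SE 0.19, adjusted p = 0.914). For neither did the groups separate. Psmf1, known as an inhibitor of the core in the test tube, was at -0.06. The median of the 5 was -0.06, with 1 not overlapping and 0 called by limma or in the authors' deposited table, while 2 had an unadjusted p under 0.05. Of genes averaging 1000 or more, as Psme1 does, 27.3% had all cKO-labelled values below all WT values. Over all genes, 9.76% had no overlap and 6.05% an unadjusted p under 0.05 on the lower side.

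The Psmg genes had the most negative median of the 6 groups, -0.68 over 4 genes, of which 3 did not overlap, 3 had an unadjusted p under 0.05 and 3 were called lower in the authors' deposited table. The shares over all genes were 9.76%, 6.05% and 3.9%, in the same order. The products of the Psmg genes pair up to build the alpha ring and are not part of the finished core. Psmg1 (chr16:95979933-95990960) had 252, 300.0 and 256 normalized counts in cKO-labelled libraries, against 433, 473 and 452 in WT (log2 change -0.75, SE 0.19, adjusted p = 0.128). Its partner Psmg2 had 260.0, 255 and 262 normalized counts in cKO-labelled libraries, against 395, 455 and 402 in WT (log2 change -0.68, SE 0.19, adjusted p = 0.164), with the cKO-labelled libraries almost equal. Psmg3 had 356, 417 and 291 normalized counts in cKO-labelled libraries, against 477, 609 and 598 in WT (log2 change -0.67, SE 0.20, adjusted p = 0.197). In all 3 the groups lay apart. Psmg4, the partner of Psmg3, had 142, 105 and 127 normalized counts in cKO-labelled libraries, against 103, 199 and 125 in WT (log2 change -0.14, SE 0.30, adjusted p = 0.888), a wide spread in WT that took in every cKO-labelled value.

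RNA of the core particle made up less of the whole, relative to the regulatory particle, in the cKO-labelled libraries. The mean summed count of the 15 core genes in cKO-labelled libraries was 0.711 of that in WT, and that of the 20 regulatory genes 0.836. Both groups were set by gene name, not by membership of the finished particle. The core genes thus include Psmb11, and the regulatory genes include the chaperones Psmd5, Psmd9 and Psmd10. The lid subunit Sem1, described below, was left out, at a mean of 1366 in cKO-labelled and 2661 in WT libraries. Within each library, the summed core count divided by the summed regulatory count was 0.916, 0.989 and 0.942 in cKO-labelled libraries 1, 2 and 3, against 1.08, 1.14 and 1.12 in WT libraries 1, 2 and 3. The groups did not overlap (0.949 ± 0.037 and 1.12 ± 0.030, SD, n = 3 each), and a scaling factor per library cancels in this ratio. No p is given for sums over genes that were chosen with results of these data known. The median log2 change was -0.45 over the core genes and -0.27 over the regulatory genes. By sub-complex, the mean summed count in cKO-labelled libraries was 0.720 of WT for Psma, 0.702 for Psmb, 0.850 for Psmc, 0.830 for Psmd, 0.877 for Psme with Psmf1 and 0.640 for Psmg.

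**Figure D3:**
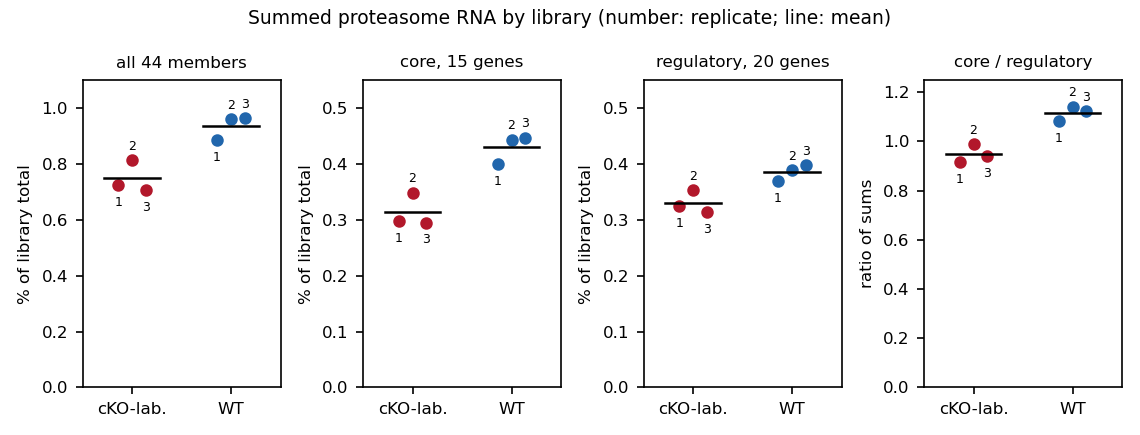
Summed normalized counts per library (% of the library's total) for all 44 genes, the 15 core genes and the 20 regulatory genes, and the ratio of core to regulatory sums, cKO-labelled left and WT right; points carry the replicate number and lines are means. In each panel the 3 cKO-labelled points lie below the 3 WT points, with cKO-labelled library 2 the highest of its group.

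Summed normalized counts of the 44 genes were close within each group. They were 50945, 52318 and 52014 in cKO-labelled libraries 1, 2 and 3, against 64986, 66386 and 68105 in WT libraries 1, 2 and 3. The lowest and highest values of single genes fell unevenly over the libraries. Of the 44 genes, 18 had their lowest value in cKO-labelled library 1, 10 in library 2 and 9 in library 3, against 2, 5 and 0 in WT libraries 1, 2 and 3. The highest value lay in a cKO-labelled library for 7 genes and in WT libraries 1, 2 and 3 for 7, 15 and 15. The median log2 change of the 44 genes stayed between -0.37 and -0.32 when each library in turn was left out.

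Other features of the libraries moved the same way or the opposite way, and their part in the result was not tested. Ribosomal protein genes (68 genes) made up 7.34%, 8.61% and 7.18% of cKO-labelled libraries 1, 2 and 3, against 8.37%, 10.3% and 9.52% of WT libraries 1, 2 and 3, a difference in the same direction with overlap. Their summed normalized counts did not overlap, at 516459 to 553827 in cKO-labelled libraries and 614393 to 715614 in WT libraries, and the mean sum in cKO-labelled libraries was 0.799 of that in WT, near the 0.778 of the proteasome genes. Mitochondrially encoded genes made up 3.95%, 2.91% and 4.47% of cKO-labelled libraries 1, 2 and 3, against 2.48%, 3.35% and 2.15% of WT libraries 1, 2 and 3, also with overlap. In bulk RNA, fewer cells of a type and less RNA per cell cannot be told apart. Genes with high counts were lower more often in general: of the 1348 genes averaging 1000 or more, 55.4% had a negative change (median -0.05) and 27.3% had all cKO-labelled values below all WT values. Of the 32 proteasome genes at that level, 30 had a negative change (median -0.35) and 21 had all cKO-labelled values below all WT values. At a mean of 100 to 1000, 5 of 11 proteasome genes did so, against 11.2% of all genes.

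Change also varied with the length of genome that a gene spans, which is known for all 44 genes and for 87.3% of the genes tested. With all genes cut by span into 5 equal classes, the median log2 change of all genes was -0.03, -0.02, 0.04, 0.10 and 0.15 in order from the shortest class to the longest. The proteasome genes' medians in the same classes were -0.45 (7 genes), -0.35 (19), -0.37 (11), -0.32 (4) and -0.20 (3), below the median of all genes in each class. The longest 2 classes hold too few of these genes to read a trend from.

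**Figure D4:**
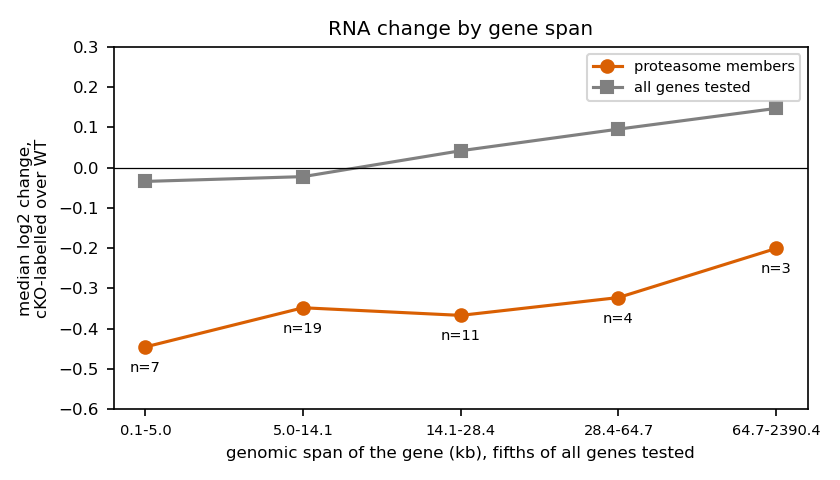
Median log2 change of RNA, cKO-labelled over WT, by 5 equal classes of genomic span in kilobases, for the proteasome genes (circles, with their number) and all genes tested (squares). The line of the proteasome genes, from -0.45 to -0.20, lies under that of all genes, from -0.03 to 0.15, in every class.

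Of 47 other genes of the ubiquitin and proteasome system, limma called 1, which was higher, and 0 lower, where 0.0332% of all genes tested were called higher and 0.172% lower. The authors' deposited table called 5 of the 43 with an adjusted p lower and 1 higher, where 3.9% and 1.78% of all genes with an adjusted p were. The median log2 change of the 47 was 0.05 and 21 were negative, a share near that of all genes tested. All cKO-labelled values lay below all WT values for 10 (9.76% of all genes tested) and above for 2 (7.4%). At an unadjusted p under 0.05, 8 were lower and 2 higher, where 6.05% of all genes lay on each side. The lists differed: all 3 immunoproteasome genes were negative, and 7 of 9 genes that control proteasome transcription were positive. Nfe2l2 was the gene that limma called. It had 453, 326 and 392 normalized counts in cKO-labelled libraries, against 169.9, 155 and 147 in WT (log2 change 1.29, SE 0.22, adjusted p = 0.0438). All 3 cKO-labelled values stood far above WT, though the adjusted p ran from 0.0265 to 0.324 when each library in turn was left out and was under 0.05 only without cKO replicate 2 or WT replicate 1. Nfe2l1, which encodes NRF1, had 1211, 895 and 778 normalized counts in cKO-labelled libraries, against 977, 498 and 721 in WT (log2 change 0.42, SE 0.24, adjusted p = 0.521), with wide overlap. Ddi2, the protease that activates NRF1, had 596, 405 and 619 normalized counts in cKO-labelled libraries, against 502, 283 and 333 in WT (log2 change 0.55, SE 0.25, adjusted p = 0.398), also with overlap.

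Of the 9 tested genes on the list of other proteins that join or bind the proteasome, 3 had groups that did not overlap. Over all genes tested, 9.76% had all cKO-labelled values below all WT values. Sem1, a small lid subunit named outside the Psm scheme, had 1160.3, 1837 and 1101 normalized counts in cKO-labelled libraries, against 2337, 2655 and 2991 in WT (log2 change -0.99, SE 0.20, adjusted p = 0.0635). Pomp, the maturation factor of the beta ring, had 1629.8, 1817 and 1849.5 normalized counts in cKO-labelled libraries, against 2462, 2220.2 and 2654 in WT (log2 change -0.47, SE 0.14, adjusted p = 0.193). Uchl5, a deubiquitinase of the regulatory particle, had 464, 558 and 519 normalized counts in cKO-labelled libraries, against 898, 643 and 674 in WT (log2 change -0.51, SE 0.19, adjusted p = 0.298). All 3 were lower in every cKO-labelled library than in any WT library, while the median of the list was -0.14. The immunoproteasome subunits Psmb8, Psmb9 and Psmb10, which replace Psmb5, Psmb6 and Psmb7 in immune cells, had log2 changes of -0.54, -0.68 and -1.09 (adjusted p = 0.141, 0.193 and 0.0546, limma), without overlap. In the authors' deposited table all 3 were called lower (authors' adjusted p = 0.0207, 0.0436 and 0.000102). Sem1 was called lower there as well (authors' adjusted p = 0.000941). Genes upstream of the proteasome gave no common direction. Of the genes that encode ubiquitin, Rps27a, a fusion of ubiquitin to a ribosomal protein, was at -0.57 and Ubb at 0.27. The 10 activating and conjugating enzymes had a median of 0.02, with Ube2l3 at -0.45, the activating enzyme Uba1 at 0.24 and Ube2r2 at -0.20. The 12 shuttle and segregase genes had a median of 0.12, with Nploc4 at 0.37, Zfand5 at -0.29 and Rad23b at 0.25.

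Open chromatin at the starts of these genes was on balance slightly higher in the cKO-labelled libraries. Regions were compared by the tag count of their highest peak, per 10000000 tags, where all 6 libraries had a peak within 1 kb of the gene start. Such a region was found for 43 of the 44 genes, 44 regions in all because Psmc2 had 2, and Psmb11 had none in all 6 lists. After quantile normalization, 35 of the 44 regions had a positive log2 change, with a median of 0.15, against 0.02 over all 33531 regions and 0.12 over the 10585 regions at any gene start. A negative change was found for 9 of the 44, where 31.0% of the regions at any gene start were negative. limma called 3 of the 44 higher and 0 lower. Of all regions 3.67% were called higher and 4.33% lower, and of the regions at any gene start 5.92% and 2.84%. At an unadjusted p under 0.05, 11 of the 44 were higher and 1 lower, where 14.8% of all regions were higher and 13.1% lower, and 24.3% of regions at any gene start were higher and 7.58% lower. The share called or nominally higher was thus near that of any gene start.

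The called regions were at Psmb6, Psmd14 and Psmd3, and their tag counts are given before quantile normalization. The region at Psmb6 (chr11:70524691-70526402, mm10) had 84.2, 102 and 95.1 tags in cKO-labelled libraries, against 58.1, 46.1 and 65.3 in WT (log2 change 0.75, SE 0.13, adjusted p = 0.0126). It holds the promoter with the element core 9 bases before the start, printed above. The window of Psmd14 had no such match, and Psmd3 had no window. Whether the letters go with the ATAC change was not tested. The region at Psmd14 (chr2:61711127-61713480) had 88.3, 88.0 and 98.9 tags in cKO-labelled libraries, against 65.3, 49.9 and 68.0 in WT (log2 change 0.59, SE 0.12, adjusted p = 0.0211), and that at Psmd3 (chr11:98681737-98683578) had 282, 268 and 263 tags in cKO-labelled libraries, against 203, 131 and 201 in WT (log2 change 0.26, SE 0.07, adjusted p = 0.0493). In all 3 the groups lay apart, with WT library 2, the library with the smallest share of tags in peaks, the lowest. The count depended on single libraries: it was 1 without cKO replicate 1, 0 without cKO replicate 2 or cKO replicate 3, and 2 without each WT library. The regions with a negative change and the smallest p were at Psma6 (log2 change -0.23, SE 0.10, adjusted p = 0.161), Psma7 (log2 change -0.21, SE 0.10, adjusted p = 0.198) and Psme2 (log2 change -0.10, SE 0.05, adjusted p = 0.259), and none passed. Their sign depended on the scaling. With no scaling the log2 changes of Psma6, Psma7 and Psme2 were 0.10, 0.02 and 0.44. With library medians subtracted they were 0.40, 0.33 and 0.75. Before quantile normalization Psme2 had 587.7, 585.8 and 600.8 tags in cKO-labelled libraries, against 539.4, 305.6 and 499.4 in WT. The tag counts of Psma6 and Psma7 overlapped between the groups.

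At the other printed promoters, the region at Psmd2 had 92.4, 90.8 and 84.8 tags in cKO-labelled libraries, against 79.3, 52.1 and 70.6 in WT (log2 change 0.41, SE 0.12, adjusted p = 0.0506). That at Psmd9 had 37.6, 41.7 and 35.7 tags in cKO-labelled libraries, against 38.9, 26.5 and 28.9 in WT (log2 change 0.59, SE 0.19, adjusted p = 0.0698). The region at Psmb5 had 42.8, 37.8 and 38.8 tags in cKO-labelled libraries, against 34.3, 31.4 and 40.5 in WT (log2 change 0.43, SE 0.18, adjusted p = 0.152), with the groups overlapping. The regions at Psme4, Psmd13 and Psmg1 had log2 changes of 0.26, 0.18 and 0.18, also with overlap.

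The scaling set the size of these ATAC differences. Subtracting each library's median in place of quantile normalization gave 33 of the 44 regions called higher and 0 lower, where 28% of all regions and 59.2% of the regions at any gene start were called higher. The 44 regions then had a median of 0.57. This scaling moved the median over all regions to 0.16 and that at any gene start to 0.52. With no scaling 1 of the 44 regions was called higher and 0 lower. Of all 33531 regions 459 were then called higher and 3029 lower, and of the 10585 regions at any gene start 293 and 221. The median of the 44 regions with no scaling was 0.26, and that over all regions was -0.15. Regions at any gene start had a median of 0.22 with no scaling, so that the 44 regions' median was near that of all gene starts under each of these scalings.

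Of the 44 regions, 32 belonged to genes with a negative RNA change and had a positive ATAC change, 9 were negative in both, 3 positive in both and 0 positive in RNA alone. Across the 44 regions, which share their libraries, Spearman's rho between the RNA and ATAC changes was -0.15, given as a description.

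**Figure D5:**
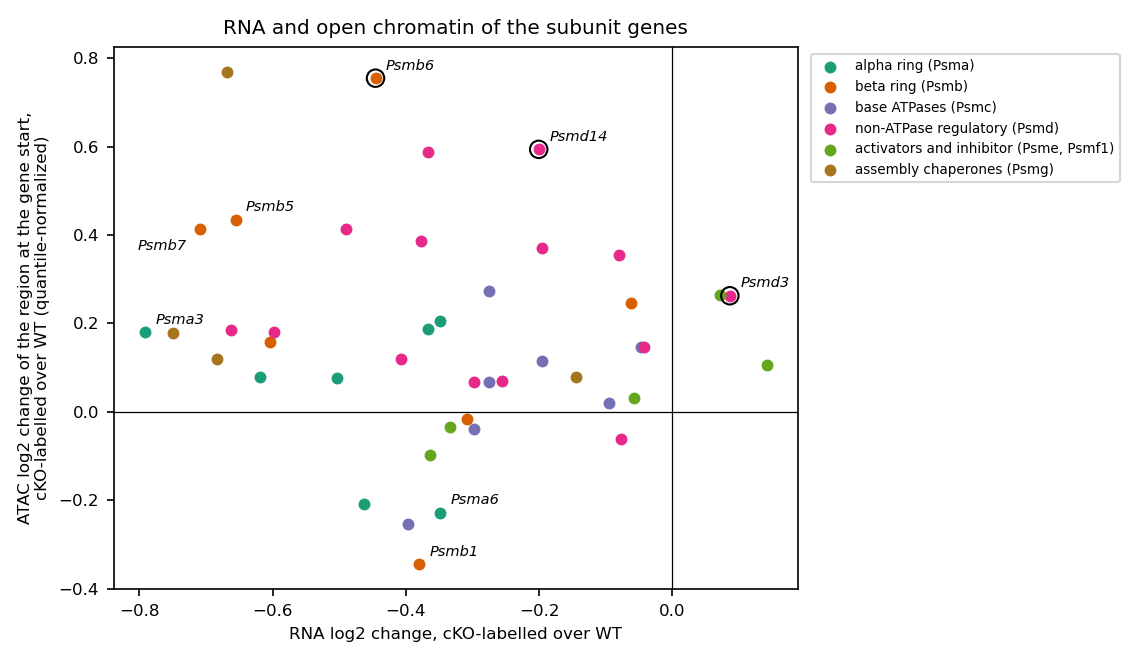
Log2 change of RNA (horizontal) against log2 change of the ATAC region at the gene start after quantile normalization (vertical), both cKO-labelled over WT, for 44 regions of 43 genes, coloured by group. Rings mark the 3 regions called by limma, at Psmb6, Psmd14 and Psmd3; 32 of the 44 points lie to the left of zero for RNA and above zero for ATAC.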

How the data were processed

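RNA-seq and ATAC-seq were each measured in 3 cKO-labelled and 3 WT libraries. The submitters' processing notes name the mm10 build and, without settings, the tools HOMER 4.11, Bowtie2 2.3.5.1, RSEM 1.3.3, STAR, edgeR and DESeq2. The RNA table deposited by the authors holds a signal, their normalized counts per gene; only 0.179% of the nonzero values come within 0.001 of an integer, and read counts could not be recovered from them. The authors' deposited log2 fold change, p-value and adjusted p-value are their own, from the same table. The ATAC files are HOMER peak lists; per the file headers the tag count is a signal scaled to 10000000 tags, the peak score is a score in tags, the clonal fold change is a ratio, and peaks were called at a Poisson p of 0.001.

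Genes averaging at least 10 were fitted on log2(value + 1) by limma 3.58.1 under R 4.3.3, using eBayes and its mean-variance trend, with p-values adjusted by Benjamini-Hochberg over 18074 genes, two-sided at 0.05. Peaks sharing at least 1 bp were merged into 114463 regions (Python 3.11.15, pandas 2.3.3, numpy 2.4.6), and the 33531 regions in all 6 lists were tested likewise after quantile normalization. For 7 genes without a RefSeq promoter window (Psmb1, Psmb2, Psmb7, Psmc3, Psmd3, Psmd7, Psmg2) both ends of the gene were used. Both fits were run on simulated data with changes larger than that of any proteasome gene or region. Those runs therefore do not show how well changes of the size reported here are found. Figures used matplotlib 3.10.9.

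The genes, lists and tests were chosen with earlier results of these data known. Values in every library are given for up to 4 genes with the smallest p in each sub-complex and for those with the highest and lowest mean. Other genes are given by their change alone; Psmb2, Psmc4, Psmd3 and Psmd10 were chosen after their values were seen. Of other lists up to 3 genes with the smallest p are named, with Nfe2l2 and Nfe2l1.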

Additional observations from a re-analysis of the deposited data

How the results depend on the processing

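The number of the 44 genes called by limma was 0 as reported, 19 with array quality weights and 12 in the authors' deposited table, and it ran from 0 to 3 when each library was left out. Their median log2 change was -0.30 after quantile normalization, -0.38 with array quality weights and -0.24 in the authors' table, whose fold changes are smaller in size; without each library it ran from -0.37 to -0.32. Between 37 and 42 of the 44 were negative under every setting run. The number of other ubiquitin and proteasome genes called, 1 as reported, was 2 with a pseudocount of 5 or a minimum mean of 50, 3 without a filter, 0 without the variance trend, 11 with array quality weights, 6 in the authors' table, and 0 to 3 without each library. With array quality weights 4.65% of all genes tested were called lower, and the share called higher is not given. Direction turned only for genes near zero: Psmd8 to 0.028 after quantile normalization, and with array quality weights Psmb2 to 0.076, Psmd12 to 0.0021, Psmf1 to 0.023 and Psmg4 to 0.037. Leaving out each library gave changes on both sides of zero for Psmb11 (-0.47 to 0.26), Psmb2 (-0.21 to 0.077), Psmc4 (-0.10 to 0.0088), Psmc6 (-0.19 to 0.018), Psmd3 (-0.013 to 0.18), Psmd12 (-0.16 to 0.042), Psme4 (-0.014 to 0.19), Psmf1 (-0.20 to 0.11) and Psmg4 (-0.35 to 0.12). The cause was not tested for these. The number of ATAC regions called, 3 as reported, was 33 with library medians subtracted (median 0.57), 1 with no scaling (median 0.26), 0 for tags per kb of peak, 0 for peak scores of at least 20 (1 region left, 0.051), and 0 to 2 without each library.

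The labels do not say that a replicate number pairs libraries. Same-number libraries correlated around their group means at 0.12, 0.21 and -0.06 for RNA and at -0.02, -0.01 and 0.00 for ATAC, so the numbers were not taken as pairs. With the replicate block 1 of the 44 genes was called (Psmb7), 3 of the other genes, and 2 of the ATAC regions. For the replicate block and for fits with a library left out, no share over all genes or regions stands beside the counts. Precision is limited by 3 libraries per group, by the unknown raw depth of the RNA, and at ATAC regions by low tag counts, down to 9.06 in a library.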

Other observations

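Pseudogene copies of the subunit genes were listed beside them at low counts. Psma5-ps averaged 37.0 normalized counts in cKO-labelled and 20.4 in WT libraries (log2 change 0.80, adjusted p = 0.54, limma), the opposite sign to Psma5. Psmb6-ps averaged 0.862 and 8.61 and Psmb5-ps 2.34 and 3.63, both under the minimum mean, while Psmb6-ps2 averaged 10.8 and 9.72 (log2 change 0.45, adjusted p = 0.888, limma). Reads of a gene and its copy may be split between them by the authors' counting.

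Psma8, left out by its mean, had 2.69, 10.9 and 7.32 normalized counts in cKO-labelled libraries and 3.43, 0 and 0 in WT libraries. Across the 44 genes, Spearman's rho of the RNA change was -0.22 with the mean count and 0.15 with the span on the genome, as a description.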
